A study of Caenorhabditis elegans with 2 samples.

Results

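The genes of the mitochondrial ribosome were examined as a family in a map of EYG-1 occupancy in Caenorhabditis elegans embryos. Members were the protein-coding genes whose symbols begin with mrpl or mrps followed by a number, and 70 of 19985 annotated protein-coding genes met this rule. By symbol, 41 encode proteins of the large subunit (mrpl) and 29 proteins of the small subunit (mrps). They lie on the autosomes, with 22 on chromosome III, 15 on I, 12 on II, 11 on IV and 10 on V, and 0 lie on X. The symbols mrps-18.C and mrps-18C belong to separate genes, on chromosomes II and III.

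Mitochondria keep their own ribosome, which translates the few messenger RNAs of the mitochondrial genome into core subunits of the respiratory chain and of ATP synthase. All its proteins are encoded in the nucleus, made in the cytoplasm and imported, so that many dispersed genes have to supply a single particle. In C. elegans, many genes lie close behind another gene on the same strand, and some of these are transcribed together as operons.

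The assay was chromatin immunoprecipitation followed by sequencing (ChIP-seq) with an antibody against GFP. All material came from strain OP443, a stable transgenic line in which EYG-1 (Y53C12C.1), a homeodomain transcription factor, carries GFP and FLAG at its C-terminus. Whole hermaphrodite late embryos were taken 4 hours after bleaching of eggs, so that the signal is a mixture over all cells of the embryo. The series held 1 group of 2 libraries, biological replicates 1 and 3, and no group without the fusion protein, so no comparison between groups and no test was possible.

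Regions came from 4 lists that the authors deposited in the ce11 build. The pooled list, called on both libraries together, held 24215 regions, the list of replicate 1 held 27360 and that of replicate 3 held 24519. Background regions are part of these 3 lists by design. The optimal list held 519 regions that passed a limit on the irreproducible discovery rate (IDR), a measure of how well the ranks of regions agree between replicates. The summit is the highest point of a region, and a region was counted for a gene when its summit lay within 1000 bp of the annotated 5' end. Signal is the signal value that the authors' peak caller gave each region, and it ran from 13.4 to 445.7 in the pooled list, with a median of 18.2. Signals have no common scale between lists, so places are also given as ranks, or as the percentage of the list from its top. Negative distances are upstream of the gene.

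Most of the family had a candidate region near the 5' end. In the pooled list, 49 of 70 members (70%) had one, against 41.6% of all protein-coding genes. The list of replicate 1 gave 48 members (68.6%, against 45.5% of all genes), and that of replicate 3 gave 45 (64.3%, against 42.9%). Both replicate lists held a region for 37 members (52.9%, against 25.8% of all genes). The share in the pooled list was above that of all genes on each of the 5 autosomes, from 50% against 31.1% on chromosome V to 81.8% against 54.4% on chromosome III. Weighting all genes to the chromosomes of the members moved the background to 46.3%.

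The regions at members were also placed high in the pooled list. The highest region of each of the 49 members had a median signal of 26.2 (quartiles 17.8 and 34.4), against 20.4 for all genes with a region. Its median place was 17.2% from the top, against 36.9% for all genes with a region. Regions with a signal of at least 23.2 lay at 29 members (41.4%), against 15.8% of all genes. Few members reached the optimal list, with 3 (4.29%) against 2.01% of all genes, and 1 (1.43%) against 1.41% within 500 bp. The family therefore stood above the background among candidate regions, while its count in the optimal list rests on single genes.

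**Figure D1:**
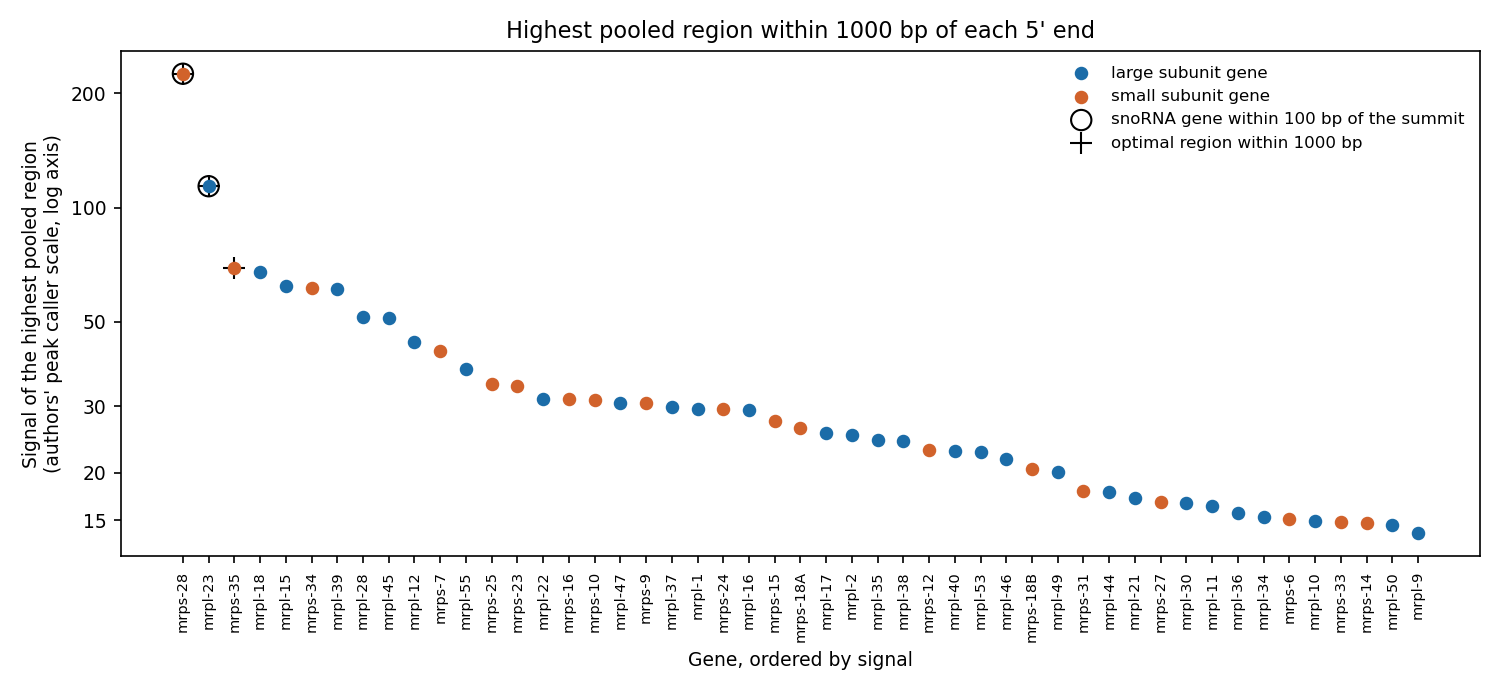
Signal of the highest pooled region within 1000 bp of the 5' end, on a log axis, for each member with such a region, coloured by subunit, with circles at snoRNA genes and crosses where an optimal region lay within 1000 bp. The 49 values run from 13.9 to 225.2, and mrps-28 and mrpl-23 stand above the rest.

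The 3 members with an optimal region were mrps-28 and mrps-35 of the small subunit and mrpl-23 of the large subunit. The region of mrps-28 lay on chromosome V from 19643117 to 19643359 with its summit 1000 bp upstream, exactly at the limit, and an optimal signal of 245.9 (rank 9). Its signal was 225.2 in the pooled list (rank 10), 64.3 in replicate 1 (rank 65) and 161.0 in replicate 3 (rank 14), where the summit was 10 bp farther away and so fell outside the limit. It was among the strongest regions of every list, but it lay in an intron of Y43F8C.7, which starts nearer to it, and within 100 bp of the small nucleolar RNA (snoRNA) gene Y43F8C.22. Closer to mrps-28, a pooled region 114 bp upstream had a signal of 27.7 (rank 3536).

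The product of mrpl-23 belongs to a conserved protein family at the exit of the ribosomal tunnel. Its optimal region lay on chromosome I from 6212653 to 6213108, with the summit 996 bp upstream and a signal of 123.4 (rank 117). The signal was 113.8 in the pooled list (rank 121), 42.9 in replicate 1 (rank 237) and 73.0 in replicate 3 (rank 111). This region too was high in every list and lay far from the gene, in an intron of the upstream neighbour fars-1 and within 100 bp of the snoRNA gene T08B2.13. Without regions at transfer RNA or snoRNA genes, a choice made after the values were seen, 1 member kept an optimal region. The share of all genes under this exclusion is not given here, so the count has no background. The member was mrps-35, whose product in other animals is a mitochondrial addition with no bacterial counterpart. Its region lay on chromosome V from 18980952 to 18981407 with the summit 126 bp upstream, inside an exon of the opposite-strand gene sws-1. The optimal signal was 71.8 (rank 509), close to the lowest of that list at 71.5. Its replicates were far apart, with 56.6 in replicate 1 (rank 97) and 12.3 in replicate 3 (rank 12019) at the same place. Another region of replicate 3, which overlaps the pooled one with its summit 334 bp upstream of mrps-35, had a signal of 22.4 (rank 1841).

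The large-subunit gene mrpl-15, whose product has a bacterial counterpart, had a pooled signal of 62.1 (rank 539) on chromosome I, 614 bp upstream. Its signal was 26.05 in replicate 1 (rank 786) and 38.4 in replicate 3 (rank 477). Both replicates placed it near the top of their lists. No other protein-coding 5' end was nearer to the summit.

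Of the other large-subunit genes, mrpl-18 had the highest pooled signal, 67.8 (rank 444), 244 bp upstream. It was higher in replicate 1, at 42.7 (rank 242), than in replicate 3, at 23.7 (rank 1564), by rank as well as by signal. The summit lay in the interval shared with the opposite-strand gene C14B9.8, whose 5' end was nearer, at 142 bp. The product of mrpl-39, a protein specific to mitochondrial ribosomes, belongs to a gene with a pooled signal of 61.1 (rank 562), 94 bp upstream. There the replicates gave 19.8 (rank 1638) and 40.2 (rank 430), the better place in replicate 3.

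Among the remaining large-subunit genes of the 10 highest, mrpl-28, whose protein has a bacterial counterpart, had a pooled signal of 51.6 (rank 816), 135 bp upstream. Replicate 1 gave 31.9 (rank 470) and replicate 3 gave 15.4 (rank 6056). For mrpl-45, whose product in mammals lies by the tunnel exit at the inner membrane, the pooled signal was 51.03 (rank 840), with 22.1 (rank 1187) and 30.7 (rank 777) in replicates 1 and 3. Its replicates were close by rank. For mrpl-12, the stalk protein that recruits translation factors, the pooled signal was 44.3 (rank 1132), with 13.1 (rank 6153) in replicate 1 and 32.7 (rank 681) in replicate 3. The summits of mrpl-45 and mrpl-12 lay 357 and 516 bp upstream, and in both cases a divergent gene, Y119D3B.12 or Y39A1A.22, started nearer.

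In the small subunit, mrps-34, another protein specific to mitochondrial ribosomes, had a pooled signal of 61.2 (rank 558), 90 bp upstream. Replicate 1 gave 15.8 (rank 3254) and replicate 3 gave 50.1 (rank 257). The next, mrps-7, encodes a protein of the head of the subunit and had a pooled signal of 42.0 (rank 1266), 171 bp upstream. It had 8.62 in replicate 1 (rank 18899) and 33.8 in replicate 3 (rank 629), so that its place rested on replicate 3.

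The DNA under 6 of these summits is shown because they have the highest pooled signals among the members whose summit window lies outside annotated transcripts and could be printed. Each stretch holds 50 bases to each side of the summit on the strand of the gene, from the RefSeq copy of WBcel235 (ce11). They lie at chrIII:8144721-8144821 (plus strand, mrpl-18), chrIII:4542492-4542592 (minus, mrps-34), chrV:1821435-1821535 (plus, mrpl-39), chrII:156094-156194 (minus, mrpl-28), chrIII:1202315-1202415 (minus, mrpl-45) and chrIV:14767851-14767951 (minus, mrps-7). Capitals mark the heptamer CGCAAAC, or its reverse complement GTTTGCG, which is described further on.
mrpl-18: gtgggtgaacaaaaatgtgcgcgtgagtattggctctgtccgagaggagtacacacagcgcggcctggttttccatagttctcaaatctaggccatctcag
mrps-34: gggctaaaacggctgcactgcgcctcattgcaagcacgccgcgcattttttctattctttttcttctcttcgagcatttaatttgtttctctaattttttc
mrpl-39: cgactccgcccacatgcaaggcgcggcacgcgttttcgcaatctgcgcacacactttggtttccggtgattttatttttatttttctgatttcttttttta
mrpl-28: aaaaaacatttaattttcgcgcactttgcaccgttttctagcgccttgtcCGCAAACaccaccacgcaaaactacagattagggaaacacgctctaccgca
mrpl-45: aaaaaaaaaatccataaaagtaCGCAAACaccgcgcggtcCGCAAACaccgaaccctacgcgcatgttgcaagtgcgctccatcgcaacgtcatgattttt
mrps-7: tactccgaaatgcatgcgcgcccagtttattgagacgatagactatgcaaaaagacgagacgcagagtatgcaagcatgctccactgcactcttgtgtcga

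The heptamer CGCAAAC recurred in the windows that reach 50 bp to each side of the summits of the members' highest pooled regions. It stood in 7 of the 48 distinct windows (14.6%), against 1.51% of the 9301 windows at any protein-coding gene and 1.27% of all pooled windows, counted on both strands. The windows at any gene were those of all pooled regions there, not only the highest of each gene, so the sets compared are unlike. The window of mrpl-45 held the heptamer at 2 places. This heptamer was picked after the sequences had been seen, as the third of 2816 by difference in share and the first with at least 4 letters G or C, and it has no test. Its share in the members' windows is thus partly set by the choice.

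The other carriers with printable windows were mrpl-55, mrps-18A and mrpl-49, which are shown so that the neighbourhood of the heptamer can be compared. They lie at chrIV:443834-443934 (plus strand, mrpl-55), chrIII:8331991-8332061 (minus, mrps-18A, shortened to 71 bp) and chrV:12728392-12728492 (plus, mrpl-49) of the same build, with capitals as before. Their pooled signals were 37.7, 26.2 and 20.1.
mrpl-55: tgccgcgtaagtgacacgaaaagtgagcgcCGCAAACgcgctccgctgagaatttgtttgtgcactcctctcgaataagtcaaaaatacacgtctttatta
mrps-18A: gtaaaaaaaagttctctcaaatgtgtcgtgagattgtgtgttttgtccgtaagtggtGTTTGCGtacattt
mrpl-49: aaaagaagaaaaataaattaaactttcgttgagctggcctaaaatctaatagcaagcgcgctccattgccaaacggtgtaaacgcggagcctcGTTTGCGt

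The remaining carriers of the heptamer were mrpl-12 and mrps-15. In the 500 bp upstream of the 5' end, the heptamer occurred at 12 of 70 members (17.1%) and at 4.72% of all genes. This is not a separate count, since 6 of the 12 are members whose summit windows led to its choice. Nuclear genes of oxidative phosphorylation had it at 7 of 41 (17.1%). In smaller mitochondrial lists, import components had it at 2 of 13 and aminoacyl-tRNA synthetases at 0 of 11. Chaperones and proteases, and translation factors and genome maintenance genes, each had it at 1 of 9. Cytoplasmic ribosomal protein genes had it at 1 of 78 (1.28%), below that of all genes.

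Motifs chosen by their known binders were close to the background. The homeodomain core TAAT stood in 27 of 48 member windows (56.2%) and in 60.5% of windows at any gene, and the palindrome TAATTA, which contains it, in 4 (8.33% against 5.3%). The motif TCACTGA, taken as a site of the paired-domain type, was in 0 of 48, against 1.38%. TATAAA stood in 10.4% against 11.7%, GAGAGA in 10.4% against 8.57%, GATAAG in 2.08% against 3.15%, and TTTTTT in 47.9% against 43.4%. The box B consensus of transfer RNA genes was in 0 windows, against 0.505%. Both strands were searched for each. As for the heptamer, member windows were those of the highest regions, and windows at any gene were those of all pooled regions there.

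The 2 subunits did not stand far apart in how often a region was found. Of the large-subunit genes, 30 of 41 (73.2%) had a pooled region, 29 one in replicate 1 and 26 one in replicate 3. Of the small-subunit genes, 19 of 29 (65.5%) had one in each of these 3 lists. The median signal of the highest region was 24.8 in the large and 29.5 in the small subunit, and its median place 20.4% and 12.2% from the top. This order turned with the replicate. In replicate 1 the median places were 29.3% for the large and 56.2% for the small subunit, and in replicate 3 they were 26.4% and 10.01%. Regions lay upstream at 21 of 30 large-subunit genes (70%) and at 18 of 19 small-subunit genes (94.7%). The lowest signals among members with a region were 13.9 at mrpl-9 in the large subunit and 14.8 at mrps-14 in the small subunit.

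Summits of the family gathered just upstream of the gene. The median position of the highest region was 171 bp upstream (quartiles −326 and −56 bp), close to that of all genes at 165 bp upstream. Of the 49, 39 lay upstream (79.6%, against 64.2% of all genes) and 28 lay within 250 bp of the 5' end (57.1%, against 34.9%). Another 7 lay at 250 to 500 bp and 14 farther out. By annotation, 31 summits fell between genes, 12 in exons and 6 in introns. In 34 cases no other protein-coding gene started as near to the summit as the member. In 15 another gene was as near or nearer, with a tie at mrpl-44. In all there were 67 distinct regions at members, since 13 members had 2 regions and 3 had 3, and mrpl-1 and mrps-24, which start back to back, shared 1.

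**Figure D2:**
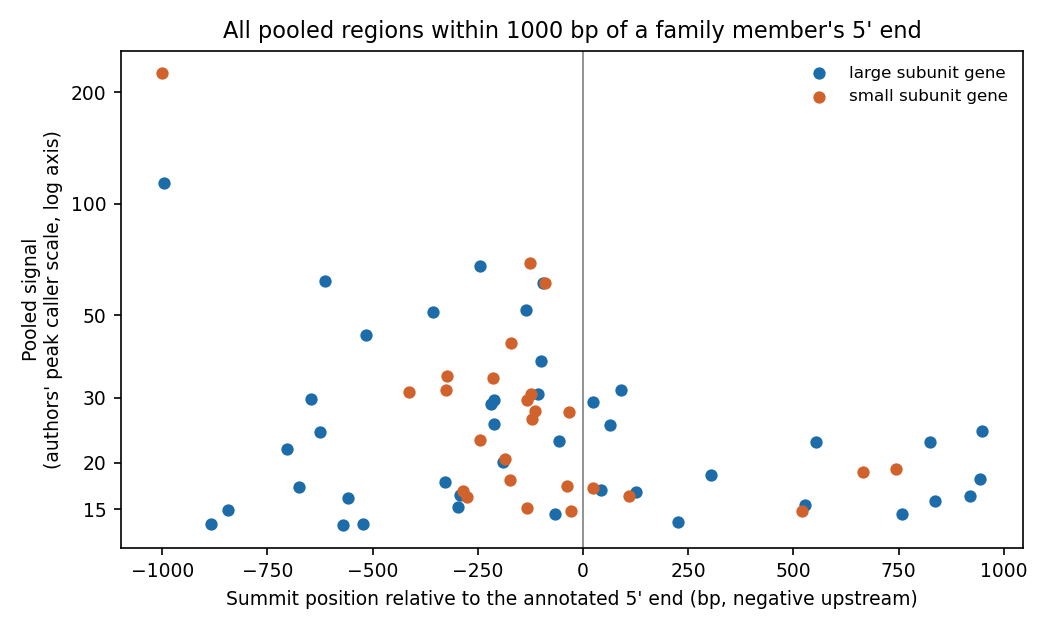
Signal on a log axis against the distance in bp from the annotated 5' end, negative upstream, for all 68 pairs of a member and a pooled region within 1000 bp, coloured by subunit. The points with the highest signals, apart from mrps-28 at 225.2 and mrpl-23 at 113.8 near the left edge, lie upstream within 614 bp of the 5' end.

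At the edge of the window, mrpl-36 and mrpl-23 had their nearest pooled summits just inside the limit, 837 and 824 bp downstream, with signals of 15.7 and 22.7. Just outside it were mrps-21, 1052 bp downstream with a signal of 19.5, and mrps-26, 1086 bp upstream with 20.01. Signals on both sides of the limit fell between 15.7 and 22.7. With a limit of 500 bp, 38 members had a pooled region (54.3%, against 28.5% of all genes). With 2000 bp, 59 had one (84.3%, against 57.8%).

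The members without a pooled region were 21. Of these, 9 had a region in a replicate list alone, namely mrpl-4, mrpl-19, mrpl-41, mrpl-51, mrps-2, mrps-18C, mrps-21, mrps-26 and mrps-30. Replicate 1 alone held a region at 6 of them and replicate 3 alone at mrpl-4. Both lists held one at mrps-21 and mrps-26, but at different places. Summits in replicates 1 and 3 lay at −219 and 801 bp for mrps-21, and at −109 and −748 bp for mrps-26. The other 12 had no region in any list: mrpl-13, mrpl-20, mrpl-24, mrpl-32, mrpl-42, mrpl-48, mrpl-54, mrps-5, mrps-11, mrps-17, mrps-18.C and mrps-22. Among them is mrps-5, whose knockdown is known to lengthen the life of worms. Their nearest pooled summits were 1248 to 18940 bp away, with a median of 2423.5 bp, and the farthest was that of mrps-5.

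Whether a member had a region went with the gene that lies before it. A 3' end of another gene on the same strand lay within 500 bp upstream of 27 members (38.6%, against 18.1% of all genes), with a median gap of 106 bp (range 26 to 461). Of these 27, 10 had a pooled region (37%), whereas 39 of the 43 members without such a neighbour had one (90.7%). All protein-coding genes showed no such difference, with 42% and 41.5%. The split was seen in both subunits, with 6 of 15 against 24 of 26 large-subunit genes and 4 of 12 against 15 of 17 small-subunit genes. Cytoplasmic ribosomal protein genes had 5 of 8 against 65 of 70, while nuclear genes of oxidative phosphorylation had 10 of 11 against 25 of 30. In smaller lists, mitochondrial aminoacyl-tRNA synthetases had 2 of 6 against 5 of 5, and chaperones and proteases 3 of 4 against 5 of 5. Mitochondrial translation factors and genome maintenance genes had 1 of 2 against 7 of 7, and import components 4 of 6 against 5 of 7. The comparison of regions between these layouts was made after the data had been seen and has no test, and operons as such were not annotated in the tables used here.

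The neighbours can be named for the members with no region. The small-subunit gene mrps-22 starts 106 bp behind dap-3, another gene of the small subunit, and mrps-5 starts 104 bp behind sel-1. In the large subunit, mrpl-48 starts 94 bp behind vps-37 and mrpl-24 starts 93 bp behind zipt-11. Of the 21 members without a pooled region, 17 had such a neighbour, and the exceptions were mrpl-20, mrpl-51, mrps-17 and mrps-18C. The 10 members with both a close neighbour and a region were mrpl-2, mrpl-21, mrpl-23, mrpl-30, mrpl-50, mrpl-53, mrps-9, mrps-12, mrps-14 and mrps-33. Their highest regions had a median signal of 19.97 and 3 of them reached 23.2, against 29.5 and 26 of 39 for the other members with a region.

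**Figure D3:**
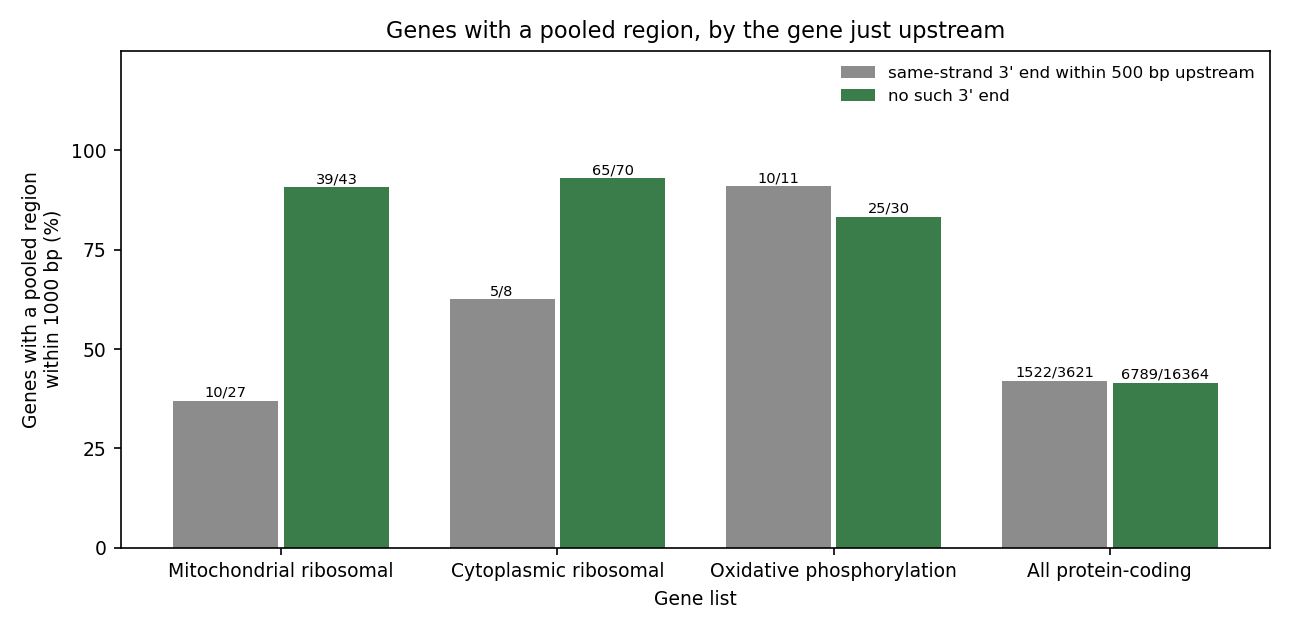
Percentage of genes with a pooled region within 1000 bp of the 5' end, split by whether a same-strand gene ends within 500 bp upstream (grey) or not (green), with the counts above the bars. Members stand at 37% with such a gene and 90.7% without, and all protein-coding genes at 42% and 41.5%.

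Opposite-strand 5' ends were frequent near members, and only 1 member, mrpl-54, had both such a neighbour and a close upstream gene. The opposite 5' end at mrpl-54 lay 721 bp downstream, so that neighbour was not divergent. The 5' end of an opposite-strand gene lay within 1000 bp of 28 members (40%, against 18.7% of all genes), and 25 of these 28 had a pooled region (89.3%, against 53.2% of all genes so placed). Without an opposite-strand 5' end so near, 24 of 42 members had one (57.1%, against 38.9%). These 42 include all but 1 of the members with a close upstream gene. The 16 members with neither kind of neighbour had one in 14 cases (87.5%, against 38.1%). That share was close to the 89.3% of members with an opposite-strand 5' end within 1000 bp. The opposite 5' end lay upstream, as in divergent genes, at 26 of the 28 members. Of these 26, 24 had a region, and in 18 the highest summit lay between both 5' ends. At such places the region cannot be attributed to either gene.

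Replicates found the members' regions again more often than regions at large, although many were found in only 1. Of 67 pooled regions at members, 38 had a summit of replicate 1 within 100 bp, 44 one of replicate 3, and 24 had both (35.8%). Regions at any protein-coding gene had both in 20.8% of cases, and all pooled regions in 18.2%. Neither replicate had a summit there for 9 (13.4%, against 18.6% at any gene). Members' regions had higher signals than regions at any gene, with medians of 22.7 and 18.8, and the part of that difference in the recovery was not tested.

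The replicates did not place the regions alike. Of 48 highest regions, 21 were matched in both lists, and 17 of these had a better place in replicate 3. Their median place was 26.0% from the top in replicate 1 (range 0.238 to 93.0%) and 6.38% in replicate 3 (range 0.0571 to 76.8%). The exceptions, with a better place in replicate 1, were mrpl-18, mrpl-28, mrpl-46 and mrps-35. Across the 21 regions, which share their libraries and were selected for being in both, the places had a Spearman rho of 0.51 and a Pearson r of 0.37. The top 10% of both lists held 6 of them, those of mrpl-15, mrpl-18, mrpl-23, mrpl-39, mrpl-45 and mrps-28.

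Taken over the whole family, the high places were those of replicate 3. The highest region of each member in the list of replicate 1 alone had a median place of 44.002% from the top, against 39.0% for all genes in that list. In replicate 3 the medians were 14.4% for members and 38.1% for all genes. The subunits differed in this. Large-subunit genes had medians of 29.3% in replicate 1 and 26.4% in replicate 3, and small-subunit genes 56.2% and 10.01%. The more frequent presence of regions at members was thus seen in both libraries. Their higher place was seen in 1 library for the whole family and for the small subunit, and in both for the large subunit.

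**Figure D4:**
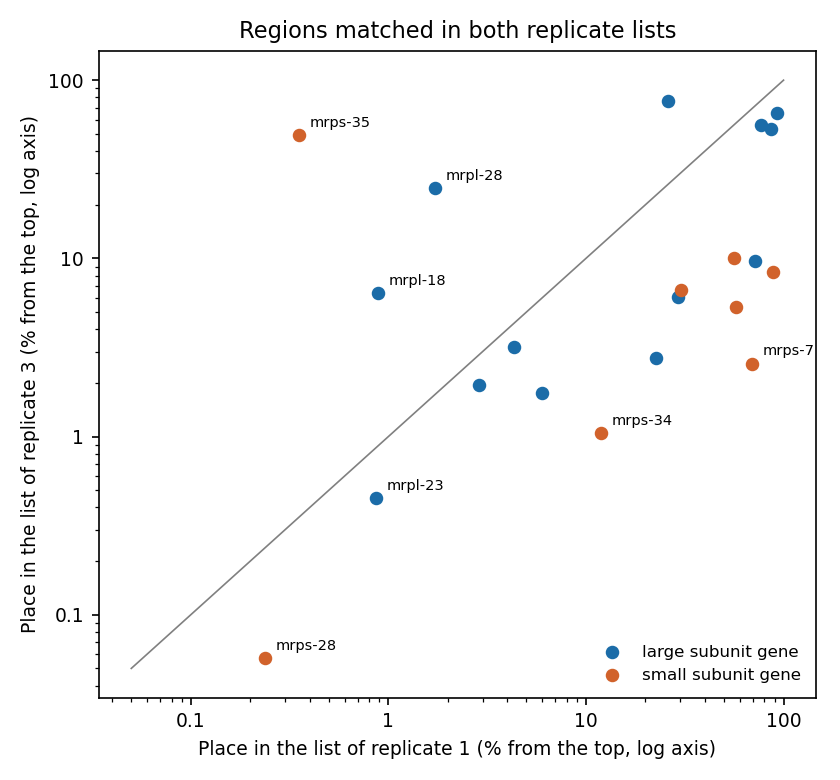
Place of each member's highest pooled region in the lists of replicates 1 and 3, in percent from the top on log axes, for the 21 regions matched in both within 100 bp, coloured by subunit, with equal places on the line. Of these, 17 have a better place in replicate 3 and 4 in replicate 1.

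Few of the members' regions lay near transfer RNA or snoRNA genes, although the share near snoRNA genes was above the background. None of the 67 regions lay within 100 bp of a transfer RNA gene, against 1.14% of regions at any protein-coding gene, and 2 lay within 100 bp of a snoRNA gene (2.99%, against 0.452%), those of mrps-28 and mrpl-23. Both were the highest regions of the family. The GC content around the summit had a median of 38.6%, against 36.6%.

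Other nuclear genes with mitochondrial or ribosomal roles give the family its place. Cytoplasmic ribosomal protein genes had a pooled region in 70 of 78 cases (89.7%) and an optimal one in 13 (16.7%), led by rpl-3 with an optimal signal of 163.6. Oxidative phosphorylation genes had them in 35 and 2 of 41, among them nuo-2 with an optimal signal of 85.3, and their median pooled signal was 36.7. Both lists were above the mitochondrial ribosomal proteins in the share with a pooled region and in median signal, which was 34.2 for the cytoplasmic ribosomal proteins.

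The smaller lists of mitochondrial genes each had 1 optimal region. Mitochondrial aminoacyl-tRNA synthetases, which charge the transfer RNAs that the ribosome uses, had a pooled region in 7 of 11, with ears-2 at an optimal signal of 227.8. Chaperones and proteases had one in 8 of 9, led by hsp-60 at 134.7, and import components in 9 of 13, led by ddp-1 at 79.8. Translation factors and genome maintenance genes had one in 8 of 9, led by mtss-1, the single-stranded DNA-binding protein of mitochondria, at 102.1. With 9 to 13 genes each, these lists give shares that 1 gene moves by several percentage points.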

How the data were processed

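ChIP-seq region lists of 2 libraries were used in the ce11 build, and the ce10 lists were not used. Per the notes deposited with the libraries, each replicate list was called against 1 control and the optimal list passed an IDR threshold. Which aligner and peak caller were used, in which versions, is not given in the sources used here. Signal values are those of the authors' peak caller, as deposited. The −log10 of a q-value in the replicate and pooled lists and the score of the optimal list, as deposited by the authors, entered no result. The summit was deposited as an offset in bp from the region's start. Counts of reads were not used, so depth is unknown and no interval was computed. The control library was not analysed here.

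Positions are counted from 1. Genes came from the Ensembl annotation (release 115) of WBcel235. Distances, matches of summits within 100 bp and motif counts were computed with Python 3.11.15, pandas 2.3.3 and numpy 2.4.6, and the assignment of summits was tested on simulated positions. In C. elegans an annotated 5' end is often a trans-splice site, not the place where transcription starts. The members, gene lists, motifs and tests were chosen with earlier results of these data known. The symbols cars-2, mars-2 and wars-2 did not match the annotation. Genes were named by a rule: members with an optimal region, the 10 with the highest pooled signal, the 2 nearest on each side of the 1000 bp limit, members in no list, and up to 3 genes of each other list by signal. Further members are named for their layout, their sequence or their match between replicates, after their values had been seen. Alternatives changed the distance, the list, the match and the motif window.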

Additional observations from a re-analysis of the deposited data

How the results depend on the processing

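Members with a pooled region numbered 38 to 59 of 70 under the other distances, overlap, transcript and nearest-gene settings, against 49. The lists of replicates 3 and 1 on their own, given above, held 45 and 48. Among regions with a signal of at least 23.2 they numbered 29, since fewer regions are left. The optimal count of 3 fell to 1 within 500 bp and to 1 without regions at transfer RNA or snoRNA genes. For the latter, no share of all genes is given. The median place of 17.2% in the pooled list stood beside 14.4% in the list of replicate 3 on its own. In the list of replicate 1 it was 44.002%, and the cause was not tested. Regions found in both replicates rose from 24 to 38 when any overlap counted. Of the members with a close upstream gene, 10 of 27 had a region (37%), and 16 of 34 (47.1%) with a gap of 1000 bp. The other members stood at 90.7% and 91.7%. In the lists of replicates 3 and 1 on their own, members with such a gene and a region numbered 10 and 12. Members with a region and no such gene numbered 35 and 36, against 39. The settings for the upstream gap and for small RNA genes were chosen after seeing the data. With windows reaching 100 bp to each side, 5 motif counts moved. The count of TAATTA stayed at 4 (8.33%), but windows at any gene rose to 10.3%, so its order against the background turned. No paired analysis was possible because there was 1 group. The depth of the libraries is unknown, so absence from a list does not show absence of binding.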

Other observations

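The mitochondrial chromosome itself held 13 regions in the list of replicate 3, with signals from 11.7 to 470.3, and 1 of them was the highest of that list. The lists of replicate 1 and of both libraries together held 0 regions there.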
